A study of Mus musculus with 12 samples.

Results

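The genes described here encode the proteins of the cytoplasmic ribosome, as measured on expression arrays of 3 blood cell populations of the mouse fetal liver. They were chosen by name only: a gene symbol of the array's annotation that starts with Rps, Rpl or Rplp, followed by a number and at most 1 of the letters a, x, l or y. Among the probe sets that carry a single symbol, the one with the highest mean over the 12 arrays stood for its gene. This gave 58 of the 19937 genes of the table, 21 for the small subunit and 37 for the large subunit. Of 80 protein-coding mouse genes whose RefSeq symbol has this form, 57 were among the 58, and the remaining 1, Rps4l, is a transcribed pseudogene in RefSeq. The other 23, among them Rpl3, Rpl11, Rpl13a, Rps24 and Rps26, have no probe set of a single symbol; 16 of them share a probe set with other symbols.

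The study compared hematopoietic stem and progenitor cells (HSPC, called HSC on the labels) with erythroblasts (ERY) and megakaryocytes (MEG), to learn which genes change as progenitors enter the erythroid and megakaryocytic lineages. All cells came from mouse fetal liver at stage E14.5, and 4 biological replicates of each population were hybridised to GeneChip Mouse Gene ST arrays. Extraction of total RNA with Trizol is given for the samples, while the study's methods name affinity purification of mRNA. By the study's methods HSPC were sorted as lineage-negative Sca1+ cells without Ter119, and ERY were taken from the liver by Ter119. MEG, in contrast, were grown in culture from fetal liver progenitors and enriched by CD41, so that lineage and culture cannot be told apart in any comparison with MEG. No strain, genotype or treatment is given on the labels. Values are log2 signals after robust multiarray averaging (RMA), so 1 unit is a 2-fold change.

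A ribosome joins a small subunit, which reads the mRNA, to a large subunit, which forms the peptide bond, and each subunit carries its own set of ribosomal proteins on ribosomal RNA. Most ribosomal protein mRNAs of mammals begin with a C followed by an unbroken run of pyrimidines, the terminal oligopyrimidine tract, through which mTOR and LARP1 control their translation. Developing red cells depend strongly on ribosome supply: loss of a single copy of genes such as Rps19 causes Diamond-Blackfan anaemia, in which red cell formation fails while platelets are mostly spared.

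Start sites were read from RefSeq promoter sequences of the mouse build GRCm38.p6, which hold 46 of the 58 genes. A C followed by at least 4 pyrimidines, with the C at a position from -2 to +2 where the annotated start is +1, was present in 14 of the 46 (30.4%), against 8.72% of all 27025 genes of that table and 9.81% of those expressed here. The windows below reach from 15 bases before the annotated start to 15 bases from it, 5′ to 3′ on the gene's strand, with the C and its pyrimidine run in capitals. They show the start sites of 6 genes that fell over 2-fold in MEG, then of 3 genes with the same kind of start and small changes, and last of Rpl12 and Rps13, which fell over 2-fold and have no such run at these positions. In Rpl12 a run of this kind begins at position +3, just outside the range searched.
Rps15a (chr7:118116133-118116162, minus strand): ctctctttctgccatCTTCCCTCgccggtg
Rpl14 (chr9:120571502-120571531, plus strand): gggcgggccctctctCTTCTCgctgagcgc
Rpl7a (chr2:26910792-26910821, plus strand): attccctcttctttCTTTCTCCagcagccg
Rps21 (chr2:180257364-180257393, plus strand): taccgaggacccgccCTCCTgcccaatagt
Rpl27a (chr7:109519180-109519209, plus strand): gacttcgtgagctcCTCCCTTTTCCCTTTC
Rplp2 (chr7:141447636-141447665, plus strand): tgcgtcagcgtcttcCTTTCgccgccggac
Rps10 (chr17:27635230-27635259, minus strand): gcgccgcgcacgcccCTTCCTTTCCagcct
Rps18 (chr17:33955651-33955680, minus strand): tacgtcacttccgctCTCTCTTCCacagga
Rps6 (chr4:86857353-86857382, minus strand): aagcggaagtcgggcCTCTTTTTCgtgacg
Rpl12 (chr2:32961697-32961726, plus strand): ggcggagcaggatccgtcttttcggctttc
Rps13 (chr7:116334176-116334205, minus strand): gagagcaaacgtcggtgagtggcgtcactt
For Rpl7a the window lies at a start that RefSeq places 122 bases inside the gene. A start that is off by a few bases hides the run from this search, so a window without capitals says only that the letters are not at the positions searched.

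By the probe sets that stand for them, ribosomal protein genes were among the strongest signals on every array. Each gene is read here by its highest probe set, which by itself favours a high rank. The 128 probe sets not used had means from 2.92 (Rpl21) to 13.09 (Rps6). Of the 58, 37 lay above the 98th percentile of all 34760 probe sets in their mean over the 12 arrays, and 55 reached the expression limit, a mean of 6.16 in at least 1 population, which is the median of all probe set values. The 3 below it, Rpl3l, Rpl10l and Rpl39l, are paralogues of widely used ribosomal proteins and are known mainly from muscle or testis. The highest probe set value of an array lay between 13.77 and 13.96, and Rps6 (13.15 to 13.50), Rpl9 (13.19 to 13.55) and Rps18 (13.01 to 13.62) came close to it. Their replicates varied little: the median SD of a ribosomal protein gene over 4 arrays was 0.11 in HSPC, 0.08 in ERY and 0.13 in MEG, against 0.37, 0.15 and 0.32 for all expressed genes.

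The defining genes of each lineage were high in its own population, and genes of other cell types were present too. Of 7 HSPC markers 6 reached the expression limit in HSPC, among them Kit (10.53) and Cd34 (12.24), while Mecom did not (5.44) and Meis1 was higher in MEG (10.77) than in HSPC (8.96). The median level of 7 MEG markers was 12.71 in MEG and 8.48 in HSPC, and that of 7 ERY markers was 12.26 in ERY and 7.36 in HSPC. Hepatocyte genes had a median of 10.92 in ERY, 9.16 in HSPC and 5.78 in MEG, with Alb at 12.77 in ERY. Myeloid genes such as Mpo were high in HSPC, with a median of 11.66 over 7 genes against 6.49 in ERY and 7.30 in MEG. Lyz2, which is among the 7, was higher in MEG (12.3) than in HSPC (11.5). Among the MEG arrays the median of the 7 myeloid genes was 9.73 on array 3 and 6.30 to 7.01 on the others. Of 9 macrophage genes the median was 8.85 in ERY, 6.69 in HSPC and 6.76 in MEG. Whether RNA of these other cells had a part in the ribosomal protein values was not tested. In bulk RNA, fewer cells of a type and less RNA per cell cannot be told apart, and RMA sets all arrays to a common scale, so that a level here is a share of the measured RNA and not an amount per cell.

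The median over the 58 genes was highest in HSPC by the deposited values. It was 11.93, 12.08, 12.13 and 12.004 on the 4 HSPC arrays, 11.57, 11.57, 11.63 and 11.60 on the ERY arrays, and 11.32, 11.54, 11.47 and 11.49 on the MEG arrays. Every HSPC array thus lay above every array of either lineage, and no ERY array lay below a MEG array. With each array centred on the median of its other expressed genes, HSPC array 1 (11.66) lay below ERY arrays 1 (11.67), 2 (11.78) and 3 (11.75) and MEG array 4 (11.74), and that MEG array lay above ERY arrays 1 and 4. After quantile normalization the HSPC arrays lay above all others, while MEG arrays 2 and 4 (11.59 each) lay above ERY arrays 1 (11.52), 2 (11.55) and 4 (11.57). Other genes with a short span moved the same way: 1789 expressed genes under 5000 bases from start to end had a median per array of 7.21 to 7.82 in HSPC, 7.13 to 7.27 in ERY and 7.08 to 7.17 in MEG. The median span of the ribosomal protein genes was 3157 bases, and 48 of the 58 were under 5000 bases. Genes over 100000 bases ran otherwise, with 7.13 to 7.98 in HSPC, 7.20 to 7.34 in ERY and 7.59 to 8.08 in MEG. The HSPC arrays also differed among themselves by span. Arrays 3 and 4 lay above arrays 1 and 2 by a median of 0.49 over the short genes and below them by 0.45 over the long ones, while the ribosomal protein genes lay 0.11 higher there. The part of gene span in the ribosomal protein results was not tested.

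**Figure D1:**
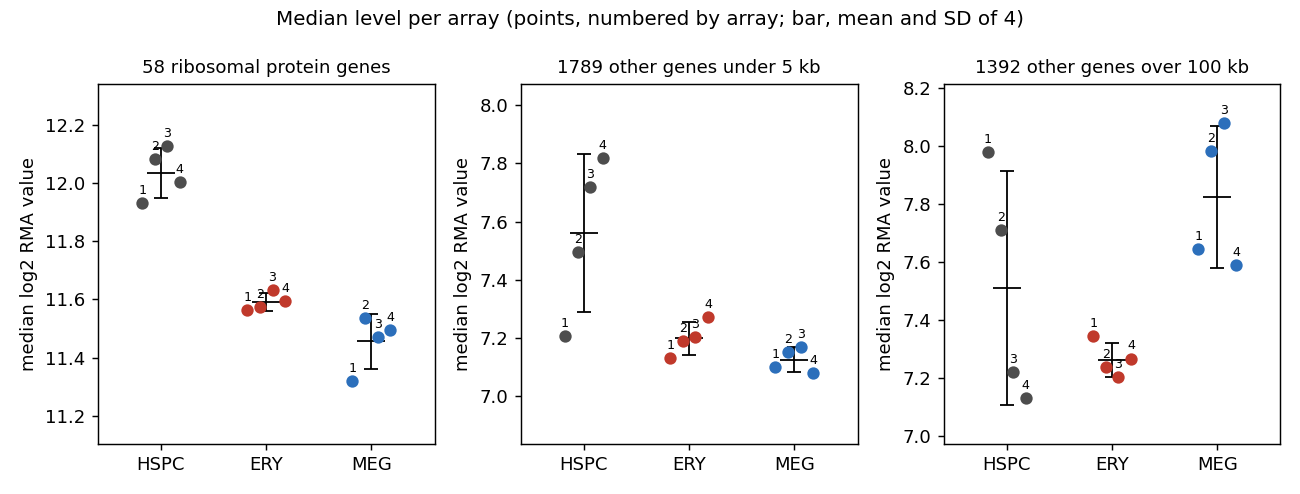
Median log2 RMA value per array (y axis, the same span of log2 units in each panel) over the 58 ribosomal protein genes, over 1789 other expressed genes under 5000 bases and over 1392 other expressed genes over 100000 bases; points are arrays, numbered within a population, and the bars are the mean and SD of 4. The 4 HSPC arrays, between 11.93 and 12.13 in the first panel, lie above all 8 ERY and MEG arrays, and HSPC arrays 1 and 2 stand apart from 3 and 4 in the third.

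MEG were compared with HSPC first. Of the 58 genes, 9 were lower in MEG by over 2-fold at an adjusted p under 0.05 and 0 were higher (limma, 4 arrays against 4), against 11.4% of all genes lower and 8.77% higher by the same rule, so that the share of large falls, 15.5%, was close to the background. Without a limit on size, a rule added after the values were seen, 39 were lower and 0 were higher, against 20.7% and 13.2% of all genes. Of the expressed genes 31.9% were lower at any size, and of those under 5000 bases 39.8%. The difference was below 0 for 54 of the 58. Its median was -0.48, a 1.39-fold lower level, while the median over all genes was -0.02 and that over expressed genes -0.18. The 4 arrays of each population did not overlap for 44 of the 58 genes, all lower in MEG, against 17.4% of all genes with this pattern. Small differences in 1 direction, between replicates that lie close together, thus made up most of the result.

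**Figure D2:**
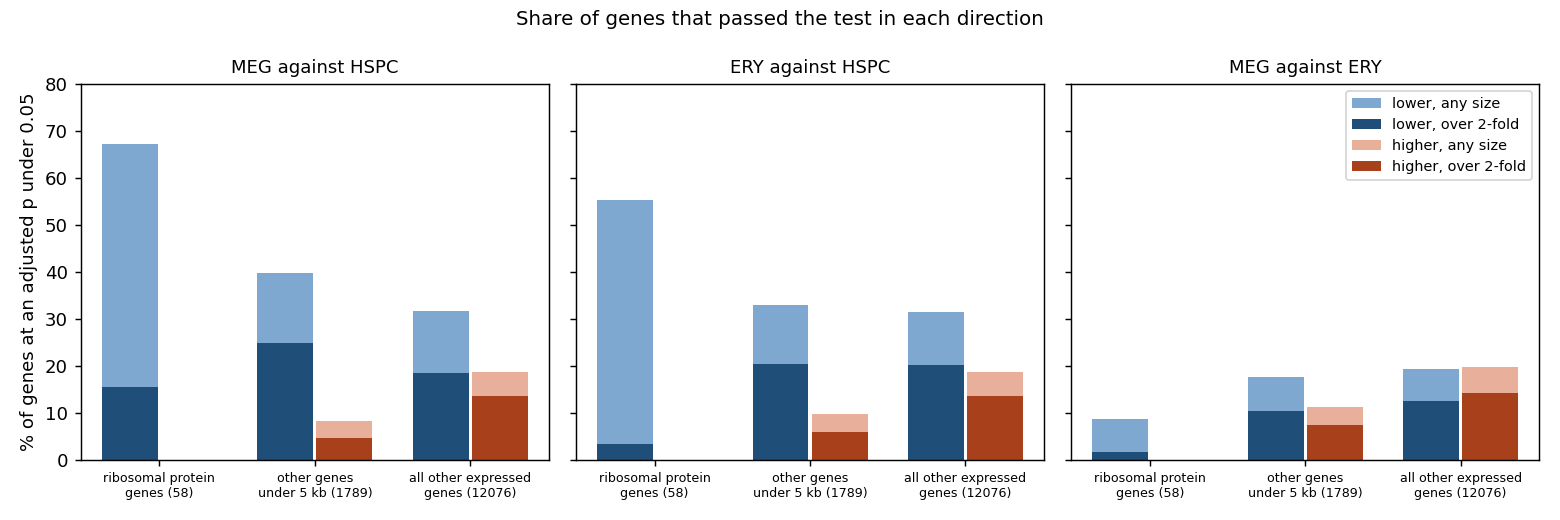
Percentage of genes (y axis) at an adjusted p under 0.05 in each comparison, for the 58 ribosomal protein genes (3 of them below the expression limit), 1789 other expressed genes under 5000 bases and all 12076 other expressed genes; dark parts of the bars are changes over 2-fold. Ribosomal protein genes have the tallest light blue bars against HSPC, with 67.2% lower in MEG and 55.2% lower in ERY, short dark parts, and no bar for higher genes in any comparison.

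In the large subunit, Rpl12, which sits at the base of the stalk where elongation factors dock, had the largest fall of the 58. Its values were 8.89, 9.56, 9.98 and 10.23 in HSPC and 7.50, 7.97, 7.60 and 6.93 in MEG. The populations were far apart, and the HSPC arrays were themselves spread over more than 1 log2 unit, with arrays 3 and 4 highest. The change was -2.16 ± 0.31 (SE), adjusted p = 0.00018. Rpl14 went from 9.42, 10.10, 9.65 and 9.72 in HSPC to 7.85, 8.64, 8.57 and 8.50 in MEG, again without overlap. Its change was -1.33 ± 0.19 (adjusted p = 0.00018).

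Rpl27a was at 11.59, 12.10, 12.17 and 12.02 in HSPC and 10.94, 11.02, 11.02 and 10.65 in MEG. This is the only one of the 9 in the upper range of the arrays, and its change was -1.06 ± 0.15. All 9 of its probe sets were below 0 in MEG. Rpl7a was at 6.76, 7.49, 7.53 and 7.47 in HSPC and 5.65, 6.59, 6.62 and 5.35 in MEG, with a change of -1.26 ± 0.28 (adjusted p = 0.0041). HSPC array 1 and MEG arrays 1 and 4 lay apart from their groups, and the level was near the expression limit. The call was lost with the mean over its 3 probe sets (-0.50) and without HSPC arrays 3 and 4 (adjusted p = 0.054).

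The stalk itself is built from Rplp0 and pairs of the acidic proteins Rplp1 and Rplp2, which recruit the GTPases of translation. Rplp2 was at 7.23, 7.48, 7.70 and 7.64 in HSPC and 6.51, 6.55, 6.35 and 6.61 in MEG, and fell by 1.01 on the log2 scale (SE 0.12, adjusted p = 6.9e-05). It stands just past the 2-fold limit and missed it without HSPC array 3 (-0.94), HSPC array 4 (-0.96) or MEG array 3 (-0.95), and at -0.85 without HSPC arrays 3 and 4. It also missed the limit with arrays centred on other expressed genes (-0.92) and after quantile normalization (-0.97). Rplp0 changed by -0.59 (adjusted p = 0.0026) and Rplp1 by -0.50 (adjusted p = 0.0033), so all 3 stalk genes were lower in MEG at any size and 1 of them over 2-fold.

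In the small subunit, Rps15a was at 9.08, 9.37, 9.37 and 9.42 in HSPC and 7.67, 8.15, 8.26 and 7.33 in MEG. It fell by 1.46 on the log2 scale (SE 0.20, adjusted p = 0.00013). Rps21 was at 9.89, 10.34, 10.53 and 10.51 in HSPC and 8.84, 9.40, 9.30 and 8.82 in MEG, a change of -1.23 ± 0.18. Rps13 was at 10.61, 11.17, 11.19 and 11.24 in HSPC and 9.65, 9.98, 9.94 and 9.77 in MEG, a change of -1.22 ± 0.15. In each of the 3 genes every MEG array lay below every HSPC array. The second probe set of Rps21 gave -1.41, and the other probe sets of Rps13 gave -1.47 and -1.14.

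**Figure D3:**
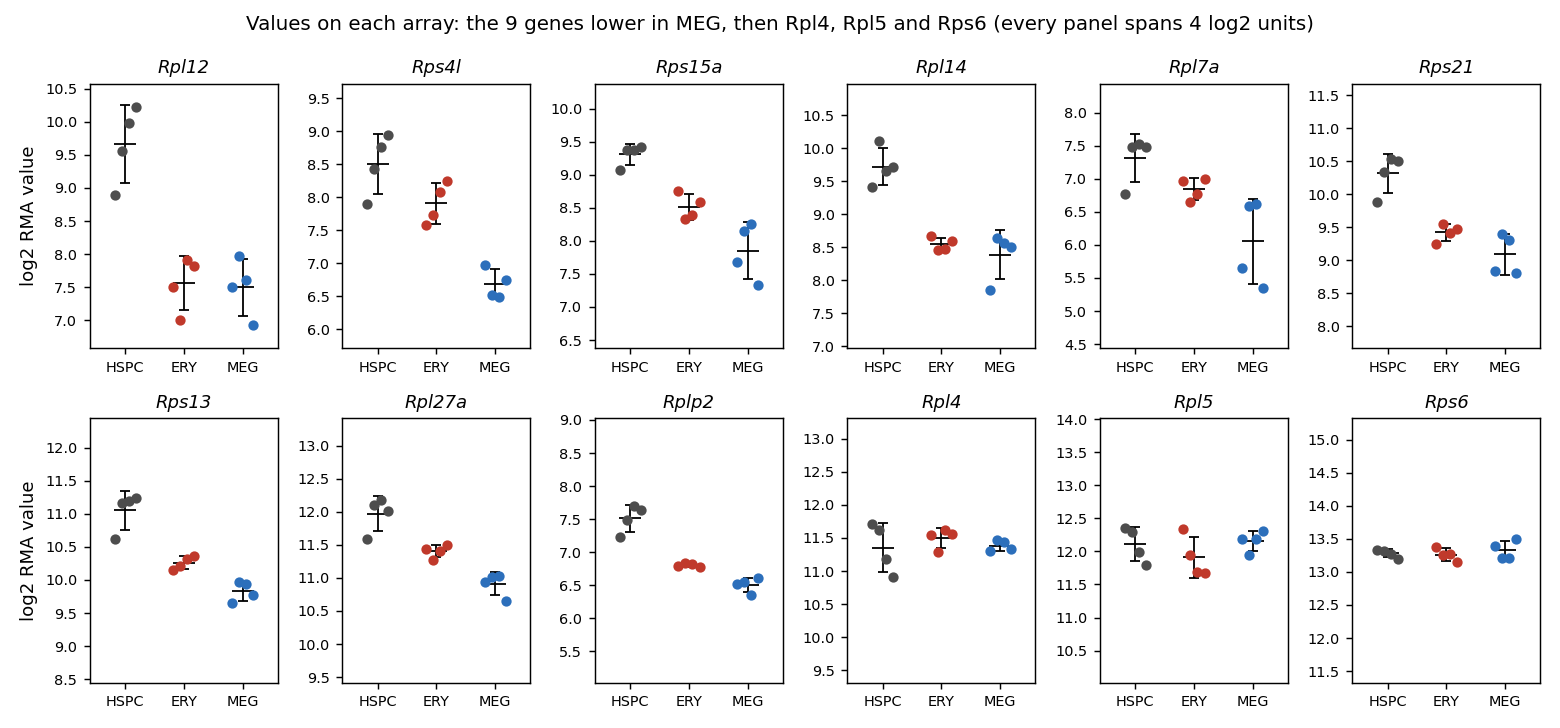
Log2 RMA value (y axis, 4 log2 units in every panel) on each array for the 9 ribosomal protein genes lower in MEG than in HSPC by over 2-fold, from the largest fall (Rpl12, -2.16) to the smallest (Rplp2, -1.01), and for Rpl4, Rpl5 and Rps6; points are arrays and bars are the mean and SD of 4. In the 9 genes no MEG array reaches an HSPC array, whereas the 3 populations overlap for Rpl4, Rpl5 and Rps6.

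Small subunit genes as a group had a median change in MEG of -0.59, with 17 of 21 lower at any size and 4 over 2-fold. Large subunit genes had a median of -0.38, with 22 of 37 lower at any size and 5 over 2-fold. Over all genes 20.7% were lower at any size and 11.4% over 2-fold. Rps4l, a transcribed pseudogene, is among the 4, and Rpl3l, Rpl10l and Rpl39l, below the expression limit, are in the large subunit group. The difference between the subunits was not tested. The remaining genes fell by less than 2-fold or did not pass: Rps19, the gene most often mutated in Diamond-Blackfan anaemia, went from 11.24, 11.45, 11.70 and 11.63 in HSPC to 10.87, 10.91, 10.75 and 10.64 in MEG (-0.71 ± 0.13, adjusted p = 0.00095). Rps14, the ribosomal gene lost in a myelodysplastic syndrome with poor red cell and good platelet production, changed by -0.63 (adjusted p = 0.0098). Rps10 changed by -0.34 and Rps18, often used as a reference gene, by -0.30, both at an adjusted p under 0.05.

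A further 19 genes did not pass at any size, and some of these are ribosomal proteins with well-known roles. Rps6, the small subunit protein phosphorylated by the S6 kinases, was at 13.33, 13.32, 13.27 and 13.20 in HSPC and 13.39, 13.21, 13.22 and 13.50 in MEG. The populations overlapped, and the difference was 0.05 (95% confidence interval -0.19 to 0.29). Rpl5, which with Rpl11 and a small ribosomal RNA can bind Mdm2, differed by 0.05 (-0.33 to 0.44), and Rps7, another Mdm2-binding protein, by -0.15 (-0.37 to 0.08). Each of these values comes from the probe set used for the gene. At the expression limit or above, the 7 probe sets of Rps6 ran from -1.04 to 0.05. Those of Rps7 (3) ran from -0.78 to -0.15, and those of Rpl5 (3) from -0.14 to 0.24. Rpl4 was at 11.71, 11.62, 11.19 and 10.91 in HSPC and 11.30, 11.47, 11.43 and 11.34 in MEG, a difference of 0.03 (-0.34 to 0.40). Its HSPC arrays 3 and 4 lay below arrays 1 and 2, the reverse of Rpl12. For 44 of the 58 genes the interval of the difference lay within 2-fold of no change.

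**Figure D4:**
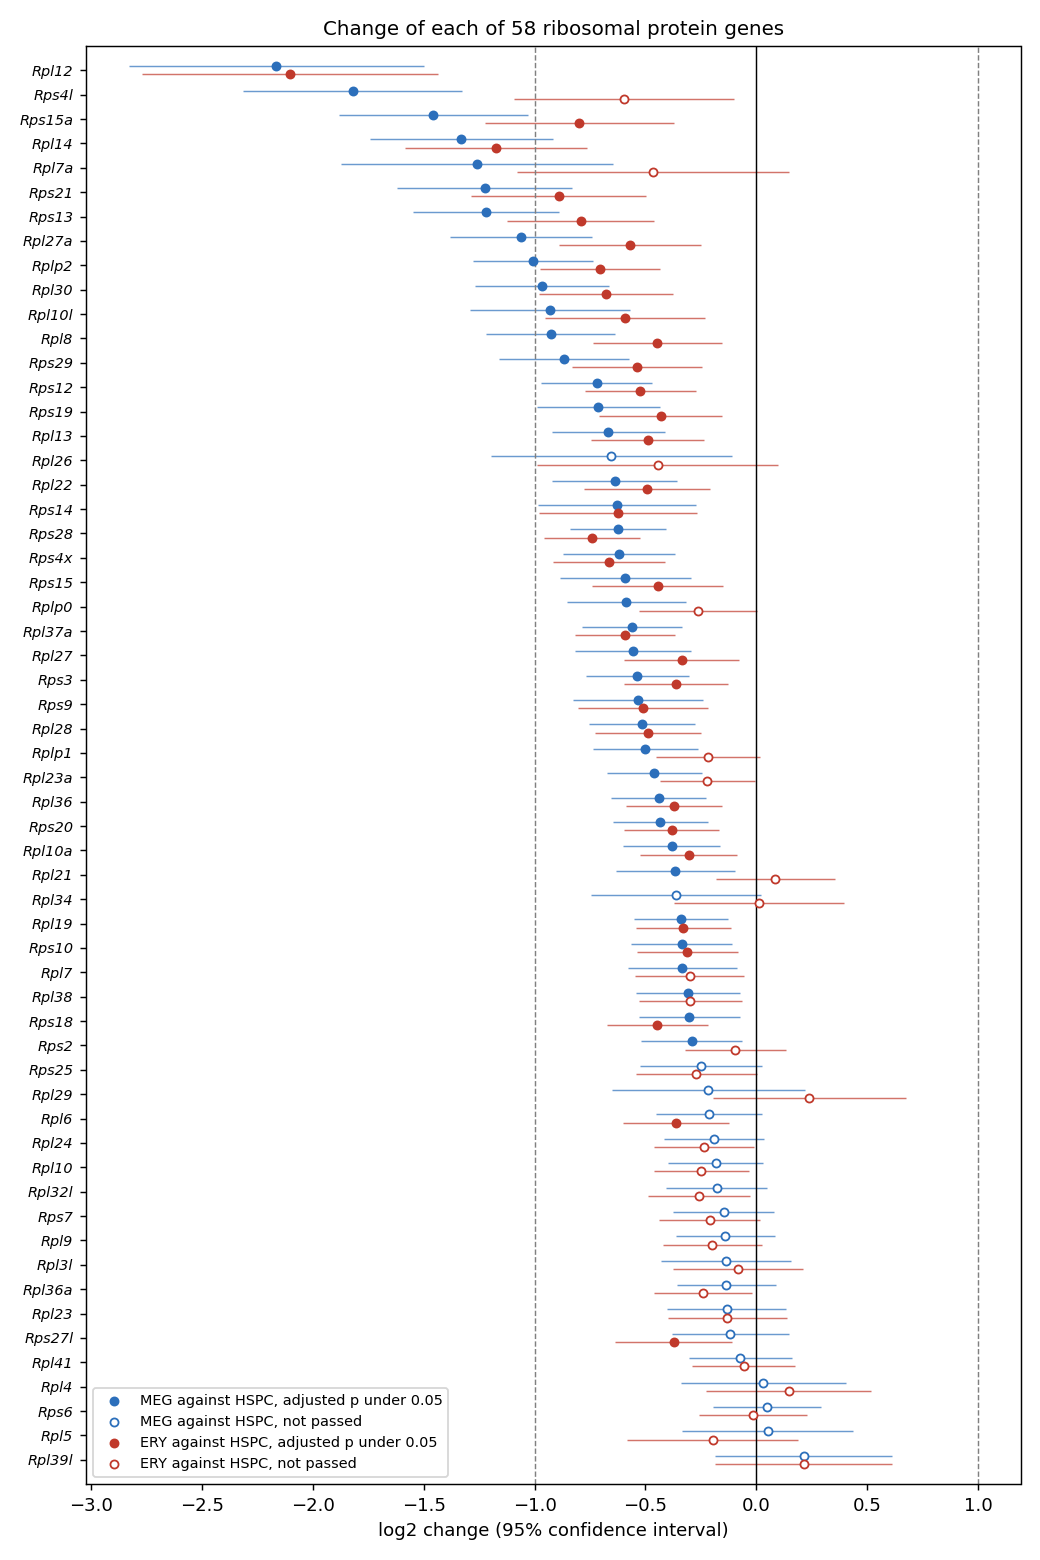
Log2 change against HSPC (x axis) with its 95% confidence interval for each of the 58 genes (y axis, ordered by the change in MEG), in MEG (blue) and ERY (red); filled points passed at an adjusted p under 0.05, and dashed lines mark 2-fold. Filled points lie only to the left of 0, from Rpl12 at -2.16 and -2.10 at the top to Rpl39l at 0.21 in both at the bottom. The comparisons share the HSPC arrays.

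The ERY comparison uses the same 4 HSPC arrays as the MEG comparison, so that the pair is not independent. In ERY, 2 of the 58 genes were lower than in HSPC by over 2-fold and 0 were higher (limma), against 12.3% of all genes lower and 8.35% higher. At any size 32 were lower and 0 were higher, against 20.1% and 12.6% of all genes. Of the expressed genes 31.6% were lower at any size, and of those under 5000 bases 32.9%. The median change was -0.37, a 1.29-fold lower level, with 53 of 58 below 0, while the median over all genes was 0.03 and over expressed genes -0.12. In 41 of the 58 genes the ERY arrays lay below the HSPC arrays without overlap, a pattern that 20.9% of all genes had. By the deposited scaling, large falls were thus rarer than in the table as a whole and falls of any size more frequent, but for falls of any size this turned when the arrays were centred, as given below.

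Rpl12 was at 7.50, 7.003, 7.91 and 7.83 in ERY, where it differed from MEG by -0.06 (95% confidence interval of MEG minus ERY -0.73 to 0.60), and its change from HSPC was -2.10 ± 0.31 (adjusted p = 0.00018). Rpl14 was at 8.66, 8.46, 8.47 and 8.59 in ERY and fell by 1.17 on the log2 scale (SE 0.19, adjusted p = 0.00038). Each ERY array of these genes lay below each HSPC array. Rps21 came next with -0.89 (adjusted p = 0.002), under the 2-fold limit. Among the genes of Diamond-Blackfan anaemia, Rps19 changed by -0.43 (adjusted p = 0.02) and Rps10 by -0.31 (adjusted p = 0.037), while Rps7 (-0.21) and Rpl5 (-0.20) did not pass. Rps14 changed by -0.62 (adjusted p = 0.01), with 11.57, 11.55, 11.81 and 11.86 in ERY against 11.94, 12.20, 12.56 and 12.57 in HSPC.

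The small subunit genes had a median change of -0.45 in ERY, with 16 of 21 lower at any size and all 21 below 0. The large subunit genes had a median of -0.30, with 16 of 37 lower at any size. Over all genes 20.1% were lower at any size in ERY. Of the stalk genes, Rplp2 changed by -0.70 (adjusted p = 0.00076), and Rplp0 (-0.26) and Rplp1 (-0.22) did not pass. The largest differences above 0 were Rpl29 at 0.24 (95% confidence interval -0.20 to 0.67), Rpl39l at 0.21 and Rpl4 at 0.15, and none of them passed. For 51 of the 58 genes the interval lay within 2-fold of no change.

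The size of the ERY result depended on how the arrays were scaled. When each array was centred on the median of the expressed genes that do not encode a ribosomal protein, the median change of all genes moved from 0.03 to 0.26 and that of the 58 genes from -0.37 to -0.14. At any size 4 of the 58 genes were then lower in ERY instead of 32, namely Rpl12, Rpl14, Rps15a and Rps21, and 0 were higher, against 13.6% of all genes lower, so that the share of the 58 genes was then below the background. In MEG the same centring left a median of -0.39 and 17 genes lower at any size instead of 39, against 15.9% of all genes. Centring shifts all genes of an array by the same value, so it cannot alter how far the 58 genes lie below the median of all genes. Which single genes passed changed with the scale. Without HSPC arrays 3 and 4, 27 genes were lower at any size in MEG, against 15.8% of all genes, and 15 in ERY, against 16.9%.

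Few of the genes differed between MEG and ERY. Of the 58 genes, 1 was lower in MEG by over 2-fold and 0 were higher (limma), against 7.77% of all genes lower and 8.75% higher. At any size 5 were lower and 0 were higher, against 13.1% and 12.7% of all genes. Lower at any size were 19.3% of expressed genes and 17.6% of the short ones. An unadjusted p under 0.05 was found for 14 of the 58 genes, and for 6741 of all 19937 genes. The count of 5 was 2 without ERY array 1, and 3 without ERY array 3, ERY array 4 or MEG array 4 (with 1 gene higher in the last). It was 8 without HSPC arrays 1 and 2 and with the mean over probe sets, and 12, with 2 genes higher, with array weights estimated in limma. The median difference was -0.07, with 43 of 58 below 0. For 55 of the 58 genes the 95% interval of the difference lay within 2-fold of no difference. In 15 genes the MEG arrays lay below the ERY arrays without overlap, against 17.7% of all genes, and in 0 above them.

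The gene that passed was Rps4l, a transcribed pseudogene related to the small subunit gene Rps4x. It was at 7.90, 8.43, 8.76 and 8.94 in HSPC, 7.58, 7.73, 8.09 and 8.24 in ERY and 6.98, 6.51, 6.50 and 6.75 in MEG. The MEG arrays lay below all others, and the ERY and HSPC arrays overlapped. The difference of MEG from ERY was -1.22 ± 0.23 (adjusted p = 0.0012), and that from HSPC -1.82 ± 0.23 (adjusted p = 7.3e-05). Its second probe set gave -1.18 and -1.99. Rps4x itself differed by 0.05 between MEG and ERY (95% confidence interval -0.21 to 0.30) and was lower in each than in HSPC, by -0.62 in MEG (adjusted p = 0.0013) and -0.67 in ERY (adjusted p = 0.0007).

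Apart from Rps4l, the genes lower in MEG than in ERY at any size were Rps15a (-0.66), Rpl27a (-0.49), Rpl8 (-0.48) and Rpl21 (-0.45). Rpl7a had a larger difference, -0.79, which did not pass (adjusted p = 0.058). The largest differences above 0 were Rps27l (0.26, 95% confidence interval -0.01 to 0.52), a paralogue of Rps27 known as a target of the tumour suppressor Trp53, Rpl5 (0.25, -0.14 to 0.63) and Rpl6 (0.15, -0.09 to 0.39). Rps27l was at 11.43, 11.61, 11.72 and 11.55 in HSPC, 11.25, 11.11, 11.21 and 11.24 in ERY and 11.63, 11.54, 11.47 and 11.21 in MEG, so that ERY lay below HSPC (-0.37, adjusted p = 0.032) and MEG overlapped with both.

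The other paralogues gave small or low signals. Rpl10 changed by -0.18 in MEG and -0.25 in ERY, and neither passed. Its 5 probe sets ran from -0.90 to -0.18 in MEG and from -0.83 to 0.72 in ERY. Its paralogue Rpl10l lay below the expression limit on every array, at 5.66 to 6.13 in HSPC and 4.50 to 5.30 in MEG, and its change in MEG was -0.93 (adjusted p = 0.00092). Rpl3l (4.61 to 5.15) and Rpl39l (4.20 to 5.12) were lower still and passed in no comparison.

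The size of a change went with the level of its probe set. In MEG against HSPC, the 14 genes with a mean of 12.5 or more had a median of -0.30 and 0 falls over 2-fold, the 26 genes from 11 to 12.5 a median of -0.50 and 1 such fall, and the 15 genes from the expression limit to 11 a median of -1.01 and 8 such falls. Other genes at the same levels had medians of 0.00 over 24 genes, -0.10 over 348 genes and -0.18 over 10805 genes. Falls over 2-fold numbered 1, 46 and 2077 among them. From 11 to 12.5 such falls were thus rarer among the ribosomal protein genes than among the others, and from the expression limit to 11 more frequent. In ERY the 3 medians of the ribosomal protein genes were -0.26, -0.35 and -0.60, against 0.00, -0.07 and -0.12 for the others. Signals near the top of an array's range can change less per change in RNA, and how far this holds for these probe sets was not tested.

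The 58 genes have 186 probe sets in all, and 37 of the genes have more than 1. In MEG, 174 of the 186 lay below 0 with a median of -0.54, and in ERY 166 did so with a median of -0.38. Many ribosomal protein mRNAs have processed pseudogene copies of near-identical sequence, so that probe sets of 1 gene may read transcripts of another, and values for a single gene are uncertain in that respect. Among the probe sets at the expression limit or above, those of a gene disagreed in sign for 7 of 37 genes in MEG and 9 of 37 in ERY. The widest spread was that of Rpl36, whose 8 probe sets ran from -3.37 to -0.44 in MEG, and Rpl21 ran from -1.10 to 0.85. A further 203 probe sets carry several symbols that include a ribosomal protein gene. They were not used for the 58 genes, and 193 of them lay below 0 in MEG (median -0.52) and 190 in ERY (median -0.29).

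**Figure D5:**
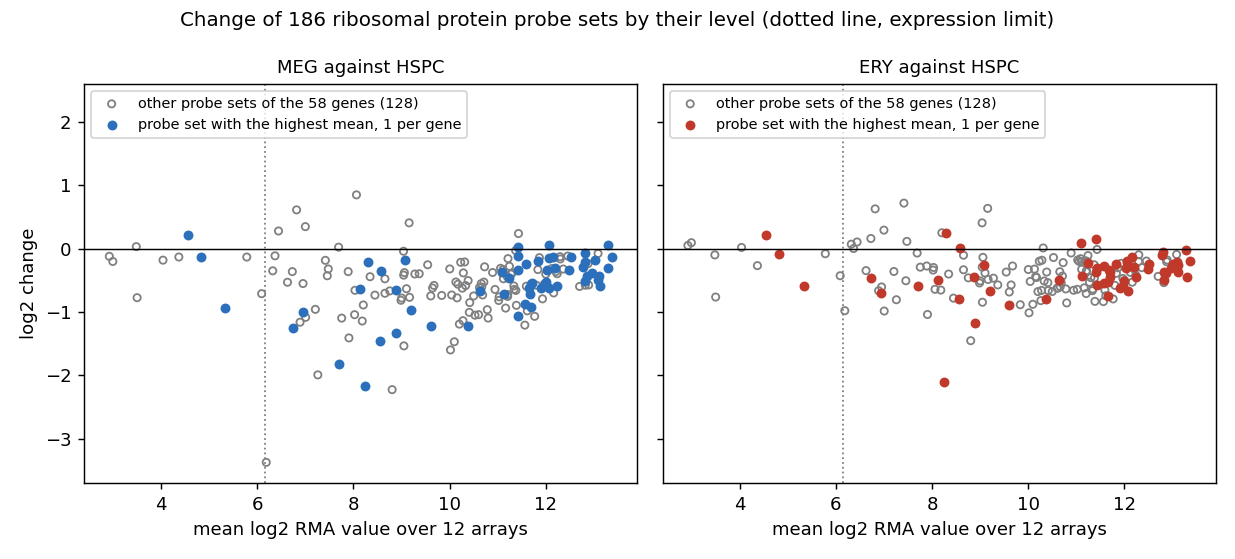
Log2 change against HSPC (y axis) by mean log2 RMA value over the 12 arrays (x axis) for all 186 probe sets of the 58 genes, in MEG and in ERY; filled points are the probe sets that stand for a gene, open points the other 128, and the dotted line is the expression limit of 6.16. Most points lie below 0, and the points near the right edge lie closer to 0 than those at middle levels.

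The changes were set beside the start sites, as a description. The 14 genes with such a start had a median change in MEG of -0.44, with a range from -1.46 for Rps15a to 0.05 for Rps6, and the 32 genes with a promoter entry but no such start had a median of -0.46. In ERY the medians were -0.46 and -0.33. Of the 14, 6 were over 2-fold lower in MEG, against 11.4% of all genes. Of the 32 the count was 2, and of 12 genes without a promoter entry it was 1. Of the 2, Rpl12 has a run that begins at position +3. The difference was not tested. The windows of the 6 stand first above, and Rps10, Rps18 and Rps6 share such a start with changes of -0.34, -0.30 and 0.05. From 250 bases before to 50 bases after the start, on either strand, the letters CCGGAAG, which ETS factors can bind, were found in 17 of the 46 genes (37%) against 9.93% of all genes and 19.4% of expressed genes. The letters CCATNTT, which resemble a YY1 site, were found in 14 of 46 (30.4%, against 18.2% of all genes), and TGATAAG, which GATA factors can bind, in 1 of 46 (2.17%, against 2.71%). The motifs were searched separately and may overlap.

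Other lists of the translation machinery were read in the same fits. Of genes related to ribosomal proteins but outside the naming rule, 5 were measured: 1 was lower by over 2-fold in each lineage, Rps19bp1 in MEG (-1.17, adjusted p = 0.00035) and Rsl24d1 in ERY (-1.41, adjusted p = 0.0049), and 0 were higher. Over all genes 11.4% were lower by this rule in MEG and 12.3% in ERY. Rps19bp1 encodes a protein that binds Rps19 and Rsl24d1 a biogenesis factor related to Rpl24, so neither is a protein of the mature ribosome. Rpsa, a small subunit protein, changed by -0.95 in MEG (adjusted p = 0.00022).

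Translation factors and other genes such as Npm1 and Nap1l1, listed for mRNAs with a pyrimidine start, went in both directions. Their own start sites were not looked up here. Of 19, 3 were lower by over 2-fold in MEG, namely Eef1d (-1.68), Eif3l (-1.52) and Eif3k (-1.23), and 0 were higher. Over all genes 11.4% were lower and 8.77% higher, so that the count of 3 was near the background. The median change was -0.08. In ERY 1 was higher, Eif3a (1.59, adjusted p = 0.026), and 0 were lower, with a median of -0.12, against 8.35% of all genes higher and 12.3% lower. Eif3a was at 10.21, 9.14, 7.88 and 7.22 in HSPC and 10.37, 9.80, 10.42 and 10.21 in ERY, so that HSPC array 1 overlapped with ERY and HSPC arrays 3 and 4 were lowest. Eef1a1, the most abundant elongation factor, differed by -0.08 from HSPC in MEG and in ERY and did not pass, and Pabpc1, the poly(A) binding protein, was higher at any size in MEG (0.69) and ERY (0.90).

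Of 16 genes of mTOR and LARP1 control, 2 were higher and 3 lower by over 2-fold in MEG. Over all genes 8.77% were higher and 11.4% lower in MEG, and 8.35% and 12.3% in ERY, so that these counts and those for ERY were near the background. The mTOR partners Mlst8 (-1.96) and Rptor (-1.50) and the inhibitor Tsc2 (-1.77) were lower, and the stress-induced mTOR inhibitors Ddit4 (2.09) and Sesn2 (1.08) were higher. In ERY 1 was higher and 3 were lower: Larp1, which binds pyrimidine starts, rose by 1.40 (adjusted p = 0.00012), and Eif4ebp1 (-1.70), Pdcd4 (-1.48) and Akt1 (-1.33) fell. Larp1 was thus lower in MEG than in ERY, by -1.64 (adjusted p = 3.2e-05).

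Of 8 genes that rescue or recycle stalled ribosomes, 2 were higher in ERY by over 2-fold, Gtpbp2 (1.54) and Hbs1l (1.19), and 1 in MEG, Gtpbp2 (1.12), with 0 lower in either. Pelo, the partner of Hbs1l in ribosome release, was lower in MEG than in ERY (-1.08, adjusted p = 0.00058). Of 7 measured targets and partners of Trp53, which is activated when ribosome assembly fails and by other stresses, 5 were higher in MEG by over 2-fold and 0 were lower, led by Trp53inp1 (4.43) and Ccng1 (3.02). In ERY 2 were higher, Phlda3 (2.13) and Trp53inp1 (1.03). For both lists the background was 8.77% of all genes higher by over 2-fold in MEG and 8.35% in ERY, with 11.4% and 12.3% lower.

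The ribosomal proteins of mitochondria, which translate the few mRNAs of that organelle, were read beside those of the cytoplasm. Of 77 genes, 39 were lower by over 2-fold in MEG and 0 were higher, with a median of -1.04. In ERY 19 were lower and 0 higher, with a median of -0.68. Over all genes 11.4% were lower by this rule and 8.77% higher in MEG, and 12.3% and 8.35% in ERY. Mrps18b went from 10.25, 10.97, 11.31 and 11.32 in HSPC to 8.22, 9.22, 8.91 and 8.31 in MEG (-2.29 ± 0.29), and Mrpl37 changed by -2.23 in MEG. In MEG against ERY 9 of the 77 were lower, with Mrpl37 (-1.47) and Mrps28 (-1.44) furthest, and 0 were higher, against 7.77% and 8.75% of all genes. Their median level over the 12 arrays was 8.82, in the range where the cytoplasmic genes had their larger changes, and the difference between the lists was not tested.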

How the data were processed

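Per the labels and the study's methods, 12 arrays carried RNA of HSPC, ERY and MEG, with 4 biological replicates of each. The authors ran RMA on them and deposited the log2 values of the probe sets. For RMA, version and settings were not given in the sources used here. RMA sets the arrays to a common scale, so a difference is relative to the other genes of the array, and depth does not apply: the number of arrays limits the precision. The low end still differed between arrays. The median of 1027 olfactory receptor genes, read as background, was 5.70 on MEG array 4 and 4.26 to 4.55 on the other MEG arrays. It was 3.98 to 4.21 in HSPC and 4.27 to 4.74 in ERY. Its part in the values of genes with a low level was not tested.

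The table holds 34760 probe sets. The 21640 with 1 symbol were used, which gave 19937 genes; 1321 with several symbols and 11799 without annotation were left out. A linear model with a mean for each population was fitted to the deposited log2 values of the 12 arrays in limma 3.58.1 (R 4.3.3), and p-values were adjusted by Benjamini-Hochberg over all 19937 genes. A gene was called at over 2-fold and an adjusted p under 0.05, the study's thresholds. The alternatives changed the arrays, scaling, probe set rule, variance model, genes tested and thresholds. The fit was tested on simulated data. Same-numbered arrays deviated together (r over 0.1) in 4 of 12 pairs, so that replicate numbers were not taken as pairs. Counts, sequence searches and plots used Python 3.11.15 with pandas 2.3.3, numpy 2.4.6 and matplotlib 3.10.9.

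The genes described and the lists were chosen with earlier results of these data known, so no test was made over a list, and Benjamini-Hochberg values refer to single genes. Genes named singly were, in each comparison, the up to 6 with the largest change each way past the thresholds (3 where fewer than 3 passed), paralogues, stalk proteins, genes of Diamond-Blackfan anaemia and of a myelodysplastic syndrome, reference genes and Rps6. Rps13, Rpl27a, Rpl8, Rpl9, Rpl21 and Rpl36 were chosen after their values were seen, as were Rpsa, Eef1a1 and Pabpc1. Gene spans, symbols and start sites came from RefSeq (GRCm38.p6), which matched all 58 genes. Gene span was used where protein length had been planned, since protein sequences were not used here, and identity between paralogues was not computed.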

Additional observations from a re-analysis of the deposited data

Results flagged for a closer look

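Of 78 sets of 4 arrays checked for an array that stands apart from the other 3, 4 were flagged, and chance alone flags about 1 in 20. The values are the gap of that array to the nearest other, divided by the whole range of the 4. Rpl7a reached 0.933 in HSPC, where array 1 (6.76) lay below the others (7.47 to 7.53). Rpl6 reached 0.908 in HSPC, where array 2 (13.08) lay above the others (12.98 to 12.99). Rps10 reached 0.859 in MEG, where array 1 (11.82) lay below the others (11.93 to 11.94). Rps15a reached 0.839 in HSPC, where array 1 (9.08) lay below the others (9.37 to 9.42). Except for Rpl7a, the gap was under 0.3 on the log2 scale.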

How the results depend on the processing

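The count of ribosomal protein genes higher by over 2-fold was 0 in all 3 comparisons (limma) under every alternative run. Against HSPC 40 of the 58 genes had an unadjusted p under 0.05 in MEG and 40 in ERY. In MEG against ERY the count was 14. Over all 19937 genes the 3 counts were 8697, 7904 and 6741, in this order. Centring on other expressed genes changed the ERY count from 2 to 1 and moved the medians to -0.14 (ERY) and -0.21 (MEG against ERY). Quantile normalization moved the MEG median to -0.38. The centring shifted the median of all genes from -0.02 to 0.07 in MEG and from 0.03 to 0.26 in ERY. In MEG against ERY it went from -0.02 to -0.15. The quantile step shifted the median of all genes to -0.10 in MEG, -0.08 in ERY and 0.003 in MEG against ERY. A 1.5-fold limit gave 22 (MEG), 12 (ERY) and 2 (MEG against ERY) lower genes, and no fold limit, added after the data were seen, gave 39, 32 and 5. Leaving out 1 array at a time gave 7 to 11, 2 to 3 and 1 to 1 lower genes, with medians of -0.49 to -0.46, -0.39 to -0.32 and -0.12 to -0.06. Without HSPC arrays 3 and 4 the MEG count was 6 and without arrays 1 and 2 it was 11. Of all summary values under these alternatives, 197 stayed within the spread of the main value or within 1.5 times its count, and 10 moved further, all given above. Among changes of named genes, 1886 values kept their side of the threshold, 37 passed it under the alternative only, 9 missed it under the alternative only (Rplp2, Rpl7a and Rpl14) and 0 reversed. Most of the 37 came from the 1.5-fold limit or no fold limit, where only the threshold was lower and the value was unchanged. The others were Rpl10l in MEG against HSPC and Rps21 in ERY against HSPC.

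The replicate numbers were not taken as pairs. With the number as a replicate block, 9, 2 and 1 genes were lower by over 2-fold and 0 were higher, and at any size 32, 26 and 5 were lower in MEG against HSPC, ERY against HSPC and MEG against ERY.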
